A study of Mus musculus with 27 samples.

Results

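The 10 genes described here encode IL-6 (Il6), IL-10 (Il10), the chains of the IL-12 family (Il12a, Il12b, Il23a, Il27, Ebi3) and the growth cytokines LIF (Lif), M-CSF (Csf1) and G-CSF (Csf3). They were taken by gene symbol from the 45070 genes of a table of normalised read counts. The choice was made with earlier results of these data known. The samples were wild-type mouse bone marrow-derived macrophages (BMDMs), grown from the marrow of male C57/BL6 mice of 6 to 8 weeks of age. All cells first received the vehicle DMSO for 1 h and were then left untreated or stimulated with 10 ng/ml of LPS or of IL-4 for 0.5, 1, 2 or 4 h. This gave 9 groups of 3 replicates and 27 libraries. RNA bound to chromatin, which is enriched in transcripts still being made, was converted into libraries with random primers by the Smart-seq2 protocol. The comparisons ask how transcription of each gene moved over time after a bacterial product that engages TLR4 and after a type 2 cytokine.

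IL-6 and LIF belong to the cytokines that signal through the shared receptor chain gp130, and IL-10 restrains inflammatory output by macrophages. The IL-12 family is built from pairs of chains. IL-12 joins p35 (Il12a) to p40 (Il12b), IL-23 joins p19 (Il23a) to the same p40, and IL-27 joins p28 (Il27) to EBI3 (Ebi3). LPS is a textbook inducer of most of these genes in macrophages, through NF-κB, AP-1 and interferon regulatory factors, whereas IL-4 acts mainly through STAT6. M-CSF sustains macrophages and G-CSF drives the growth of neutrophils.

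RefSeq promoter sequences (GRCm38.p6) were at hand for 6 of the 10 genes, in 7 windows of which 2 belonged to Il12a. The 250 bases before the start were searched on both strands. The NF-κB site was searched as GGGANNTTCC and in a form that is a base shorter, GGGNNTTCC. The AP-1 site was spelled TGANTCA. The C/EBP site was spelled TTGCNNAA and the core of an interferon response element GAAANNGAAA. The TATA box was spelled TATAAA. The promoters that held a match are printed 5′ to 3′ with the matched letters in capitals, together with that of Il12b, which had none and had a short pulse of expression after LPS.
Il6, chr5:30012864-30013113, plus strand: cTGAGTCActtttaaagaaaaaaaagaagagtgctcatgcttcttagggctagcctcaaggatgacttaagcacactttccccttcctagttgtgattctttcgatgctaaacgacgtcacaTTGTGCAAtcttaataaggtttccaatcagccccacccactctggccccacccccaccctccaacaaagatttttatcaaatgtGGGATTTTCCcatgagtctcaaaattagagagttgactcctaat
Csf1, chr3:107760470-107760719, minus strand: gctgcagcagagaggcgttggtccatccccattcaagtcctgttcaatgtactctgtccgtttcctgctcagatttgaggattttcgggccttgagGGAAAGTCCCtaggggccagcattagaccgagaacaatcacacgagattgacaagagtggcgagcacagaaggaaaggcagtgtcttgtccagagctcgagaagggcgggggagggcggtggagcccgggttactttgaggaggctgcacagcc
Ebi3, chr17:55952373-55952622, plus strand: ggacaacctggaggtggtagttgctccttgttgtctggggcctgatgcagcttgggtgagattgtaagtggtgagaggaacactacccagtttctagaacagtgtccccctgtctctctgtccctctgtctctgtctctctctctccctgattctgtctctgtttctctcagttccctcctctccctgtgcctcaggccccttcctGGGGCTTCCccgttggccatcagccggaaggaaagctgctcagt
Lif, chr11:4257318-4257567, plus strand: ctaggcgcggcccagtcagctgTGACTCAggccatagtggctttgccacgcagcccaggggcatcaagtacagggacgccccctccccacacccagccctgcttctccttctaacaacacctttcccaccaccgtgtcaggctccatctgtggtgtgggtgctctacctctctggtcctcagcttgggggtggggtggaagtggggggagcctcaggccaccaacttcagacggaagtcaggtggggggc
Il12b, chr11:44399813-44400062, plus strand: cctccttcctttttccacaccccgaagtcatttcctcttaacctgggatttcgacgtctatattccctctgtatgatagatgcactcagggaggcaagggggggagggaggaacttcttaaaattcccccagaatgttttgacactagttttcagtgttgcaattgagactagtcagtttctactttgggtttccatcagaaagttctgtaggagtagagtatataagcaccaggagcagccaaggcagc

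The Il6 promoter matched 3 of the patterns. The NF-κB letters began 44 bases before the start and the AP-1 letters 249 bases before it. The C/EBP letters lay on the opposite strand and began 128 bases before the start. In Csf1 the NF-κB letters lay on the opposite strand and began 154 bases before the start. The shorter NF-κB form stood 44 bases before the start of Ebi3, and the AP-1 letters 228 bases before that of Lif. Of all 32851 promoters searched in the same way, 1.21% held GGGANNTTCC, 4.98% GGGNNTTCC, 6.75% TGANTCA and 9.56% TTGCNNAA. None of the 7 windows held GAAANNGAAA or TATAAA, which were present in 2.98% and 12.4% of all promoters. A match to letters describes the window and was not tested as a binding site.

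All 10 genes were listed in the table, and 8 reached a normalised read count of at least 10 in at least 3 libraries and were tested among 13901 genes. Il23a and Csf3 did not. Of the 8, only Ebi3 and Csf1 would have reached this minimum without the LPS libraries. The other 6 were therefore tested because LPS raised them, so that counts over the 8 are given as a description and not as support for a response of the whole set. Library totals after the authors' scaling were 2469768 to 2790981 in untreated and IL-4 samples and 3571492 to 4058199 in LPS samples, and the sequencing depth is unknown. The summed value of 10 macrophage markers was 10064 to 11202 in untreated, 11328 to 19854 in LPS and 11033 to 14150 in IL-4 libraries. Each of 8 lists of markers of other cell types summed to at most 282 in any library. The highest was that of 7 fibroblast and stromal markers, at 39 to 92 in untreated, 44 to 282 in LPS and 29 to 211 in IL-4 libraries. In it Col1a2 reached 128, Pdgfrb 104 and Col1a1 95, while Lum was at 0 throughout. Dendritic cell markers summed to at most 101 and B cell markers to at most 65, both in LPS libraries. The sum of 8 neutrophil and granulocyte markers was 7 to 18 in untreated and 10 to 148 in LPS libraries, and that of T cell markers 6 to 13 and 5 to 37. Cd3e and Ly6g, defining markers of these cells, were at 0 throughout, while Ltf reached 60, Ngp 57, Lck 31 and S100a8 16. Their part in the results was not tested. In these bulk samples fewer cells that transcribe a gene and less RNA per cell cannot be told apart. Libraries that shared a replicate number deviated together, most clearly those of replicate 1, and values that rest on replicate 1 are named below.

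All 8 tested genes changed over the LPS course (limma F test over the 4 time points, adjusted p between 1.77e-14 for Il27 and 6.83e-04 for Lif). Of all genes tested, 87.6% did so, 32.9% with their largest change upward and 54.7% downward. Against untreated cells, 7 of the 8 were higher at 0.5 h, where 19.6% of all genes were higher. At 1 h it was 8 of 8 against a background of 24.8%, at 2 h 7 of 8 against 26.9%, and at 4 h 7 of 8 against 25.9%. The members that missed the threshold were Il12a at 0.5 h and Lif at 2 and 4 h. The timing differed widely from gene to gene, as the plot of every library shows.

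**Figure D1:**
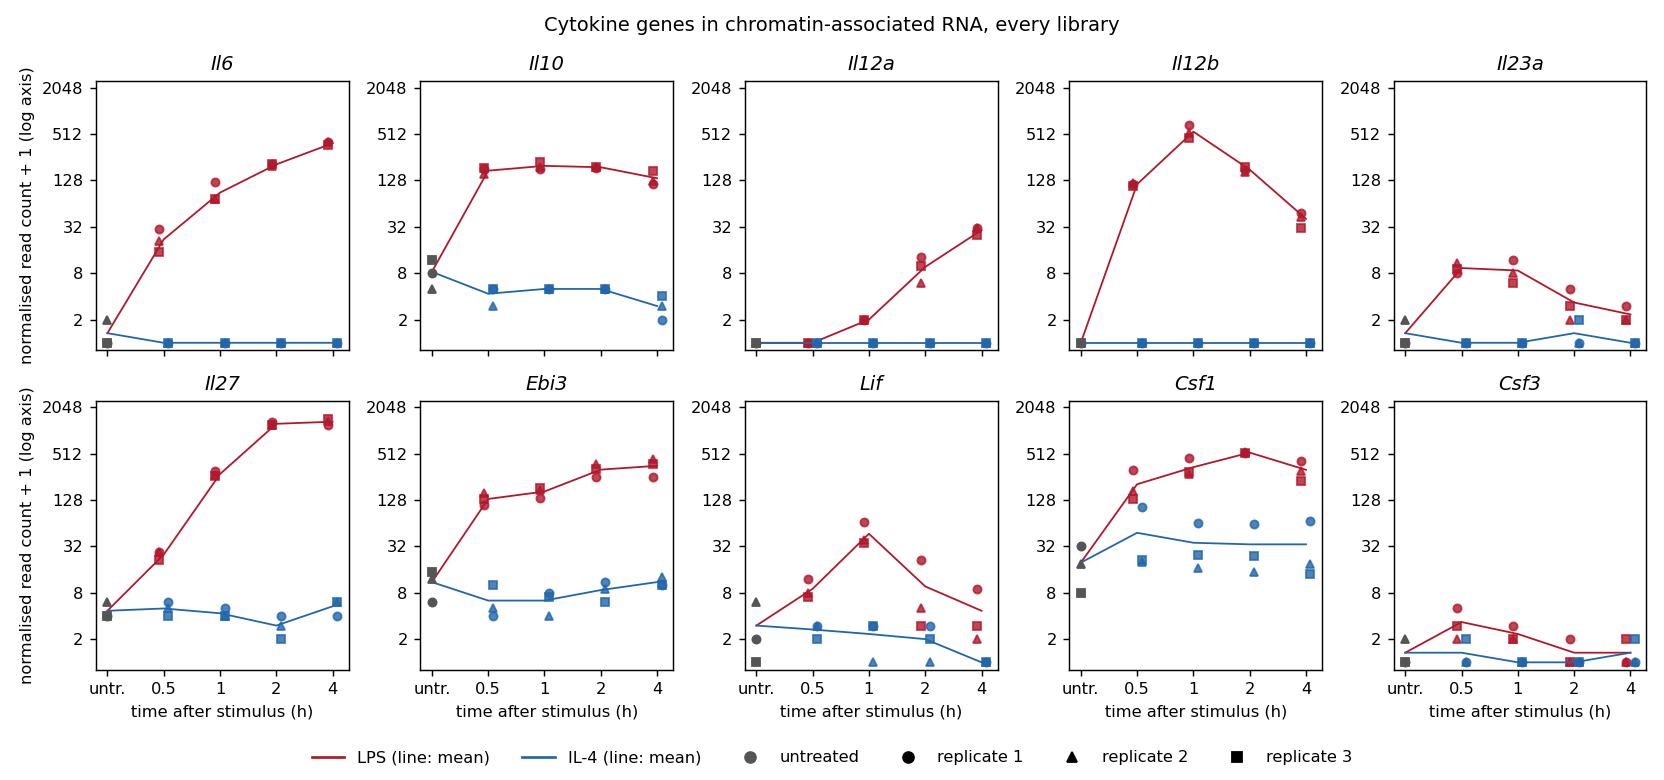
Normalised read count plus 1 (log axis) of the 10 genes in every library, against time after LPS (red) or IL-4 (blue), with untreated samples in grey; symbols mark replicates and lines join group means. After LPS, Il10 was near its maximum by 0.5 h, Il12b and Lif peaked at 1 h and Il6, Il12a, Il27 and Ebi3 were highest at 4 h, while the IL-4 values stayed near the untreated ones except in the replicate 1 libraries of Csf1.

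Il6 (chr5:30013114-30019975, mm10), the acute-phase cytokine, rose at every step. Its normalised read counts were 0, 1 and 0 in the untreated replicates, 29, 20 and 14 after 0.5 h of LPS, then 120, 72 and 72 after 1 h, then 209, 199 and 210 after 2 h, and finally 401, 398 and 366 after 4 h. No LPS group overlapped the one before it. The differences from untreated on the log2(value + 1) scale, used throughout for changes, were 4.07 ± 0.298 (SE), 6.10 ± 0.298, 7.36 ± 0.298 and 8.27 ± 0.298, with adjusted p from 2.51e-08 at 0.5 h to 2.81e-12 at 4 h. With untreated values of 0 or 1 these sizes depend on the added 1 and understate the change. The steps of Il6 were 2.03 from 0.5 to 1 h (adjusted p = 4.50e-05), 1.26 from 1 to 2 h (0.00273) and 0.91 from 2 to 4 h (0.0378). The last step was not called without replicate 2 (adjusted p = 0.192) or without replicate 3 (0.163), and the step before it was not called without replicate 3 (0.0509). Il6 lies wholly inside the non-coding gene A230098N10Rik on the other strand, and Smart-seq2 does not mark strand, so that reads of the pair cannot be told apart. A230098N10Rik was 1.11 to 1.43 times Il6 in the 12 LPS libraries.

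Lif (chr11:4257568-4272514), a cytokine that also signals through gp130, had a short pulse. It was 1, 5 and 0 in untreated cells, 11, 7 and 6 at 0.5 h, then 65, 38 and 34 at 1 h, then 20, 4 and 2 at 2 h, and finally 8, 1 and 2 at 4 h. Only the 0.5 and 1 h groups lay wholly above the untreated one, and replicate 1 was the highest library of every LPS group. Lif was 4.29 ± 0.739 above untreated at 1 h (limma, adjusted p = 1.23e-04). The smaller difference at 0.5 h, 1.94 ± 0.739 (adjusted p = 0.0374), was not called without replicate 3 (0.211) or with replicates 2 and 3 averaged (0.109). It was also not called with a pseudocount of 8 (0.0984), with no filter on low values (0.127) or with scaling to equal totals (0.0670). At 2 h the difference was 1.57 (adjusted p = 0.0732) and at 4 h 0.72 (0.410). Lif rose by 2.36 from 0.5 to 1 h (adjusted p = 0.0151) and fell by 2.72 from 1 to 2 h (0.00708). Neither step was called without replicate 2 or without replicate 3, where adjusted p was 0.0656 to 0.0677 for the rise and 0.0591 to 0.0803 for the fall of Lif.

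Il10 (chr1:131019845-131024970), the anti-inflammatory cytokine, was already transcribed at a low level and reached a plateau within 0.5 h. Untreated values were 7, 4 and 11. After LPS they were 177, 152 and 183 at 0.5 h, then 179, 188 and 224 at 1 h, then 186, 190 and 191 at 2 h, and finally 114, 126 and 167 at 4 h. All LPS libraries lay above all untreated ones, and the 4 h values overlapped those of 0.5 h only. The differences from untreated were 4.45 ± 0.244, 4.65 ± 0.244, 4.60 ± 0.244 and 4.11 ± 0.244, with adjusted p between 2.36e-10 and 1.00e-09. No step between neighbouring time points passed for Il10. They were 0.20 (adjusted p = 0.517), -0.05 (0.890) and -0.49 (0.172), each with an SE of 0.244.

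Il12b (chr11:44400063-44414677), which encodes the p40 chain shared by IL-12 and IL-23, went from nothing counted to its maximum within 1 h and then fell. It was listed at 0 in all untreated libraries. It was 115, 118 and 107 at 0.5 h, then 663, 535 and 451 at 1 h, then 175, 164 and 189 at 2 h, and finally 47, 42 and 30 at 4 h, and no LPS group overlapped another. Since the untreated group was at 0 no fold is given, and limma placed Il12b above untreated with adjusted p from 2.65e-14 at 1 h to 2.59e-12 at 4 h. Between LPS groups Il12b rose by 2.25 ± 0.190 from 0.5 to 1 h (adjusted p = 1.93e-07), fell by 1.62 ± 0.190 from 1 to 2 h (4.24e-06) and fell by 2.14 ± 0.190 from 2 to 4 h (1.09e-06). At 4 h 7.22% of the 1 h level was left.

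Il12a (chr3:68690644-68698550), the p35 partner of p40, was late. It was 0 in every untreated library and every library at 0.5 h, then 1, 1 and 1 at 1 h, then 12, 5 and 9 at 2 h, and finally 30, 30 and 24 at 4 h. The adjusted p against untreated was 0.0146 at 1 h, 4.42e-07 at 2 h and 3.44e-09 at 4 h. The call for Il12a at 1 h rests on single counts and was lost when any replicate was left out (adjusted p 0.0580 to 0.121) and with a pseudocount of 8 (0.324). From 1 to 2 h Il12a rose by 2.20 ± 0.327 (adjusted p = 4.88e-05) and from 2 to 4 h by 1.65 ± 0.327 (0.00182), and the latter step was not called without replicate 2 (0.0883) or without replicate 3 (0.0547).

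Il23a (chr10:128296140-128298084), the p19 chain of IL-23, stayed too low to be tested. It was 0, 1 and 0 in untreated cells, 7, 10 and 8 at 0.5 h, then 11, 7 and 5 at 1 h, then 4, 1 and 2 at 2 h, and finally 2, 1 and 1 at 4 h. The 0.5 and 1 h libraries lay above all untreated ones and the later groups overlapped them. With no filter on low values Il23a was above untreated at 0.5 h (2.88 ± 0.400, adjusted p = 2.72e-04), at 1 h (2.72 ± 0.400, 2.86e-04) and at 2 h (1.30 ± 0.400, 0.0268), but 0.86 at 4 h did not pass (0.140). The mean of Il23a was highest at 0.5 h and stood at 92% of that at 1 h, whereas Il12b was highest at 1 h and Il12a at 4 h. The time course of Il23a rests on values of 11 or less.

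Il27 (chr7:126589009-126595022), the p28 chain of IL-27, reached the highest level of the 10 genes per kb of gene span. It was 3, 5 and 3 in untreated cells, 26, 26 and 20 at 0.5 h, then 305, 266 and 259 at 1 h, then 1318, 1219 and 1205 at 2 h, and finally 1200, 1338 and 1447 at 4 h. The groups up to 2 h did not overlap, and the 4 h libraries overlapped those at 2 h. Il27 was 2.44 ± 0.167 above untreated at 0.5 h (adjusted p = 1.11e-08), 5.92 ± 0.167 at 1 h (3.36e-13), 8.09 ± 0.167 at 2 h (1.23e-14) and 8.18 ± 0.167 at 4 h (1.06e-14). The first steps, 3.48 and 2.17, passed with adjusted p of 1.34e-09 and 4.68e-08, whereas the step from 2 to 4 h was 0.09 ± 0.167 (0.771). The gene shares 85 bases, 1.41% of its length, with the protein-coding gene Apobr on the other strand.

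Ebi3 (chr17:55952623-55957022), the partner chain of p28, rose early and then again between 1 and 2 h. It was 5, 11 and 14 in untreated cells, 108, 155 and 130 at 0.5 h, then 135, 174 and 183 at 1 h, then 250, 380 and 319 at 2 h, and finally 254, 437 and 373 at 4 h. All LPS libraries exceeded the untreated ones, 0.5 and 1 h overlapped, and so did 2 and 4 h. Replicate 1 was the lowest library of Ebi3 in every LPS group. The differences from untreated were 3.67 ± 0.294, 4.00 ± 0.294, 4.93 ± 0.294 and 5.08 ± 0.294, with adjusted p from 7.21e-08 to 5.89e-10. Of the steps of Ebi3, 0.33 from 0.5 to 1 h did not pass (adjusted p = 0.381), 0.93 from 1 to 2 h passed (0.0172) and 0.15 from 2 to 4 h did not (0.780). The middle step was not called without replicate 2 (0.156) or without replicate 3 (0.0850). Ebi3 shares 51.2% of its length with the non-coding gene Gm16712 on the other strand, which was 0.568 to 0.770 times Ebi3 in the LPS libraries.

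Csf1 (chr3:107741048-107760469), which encodes the macrophage growth factor M-CSF, was transcribed in untreated cells and rose to a maximum at 2 h of LPS. Untreated values were 31, 18 and 7. After LPS they were 315, 168 and 129 at 0.5 h, then 451, 277 and 293 at 1 h, then 520, 538 and 522 at 2 h, and finally 414, 305 and 224 at 4 h. The 2 h group lay above every other group, while 0.5, 1 and 4 h overlapped. Csf1 was 3.49 ± 0.411, 4.30 ± 0.411, 4.96 ± 0.411 and 4.17 ± 0.411 above untreated, with adjusted p from 4.46e-06 to 3.87e-08. Its steps, 0.80, 0.66 and -0.79, did not pass (adjusted p = 0.118, 0.215 and 0.197). Replicate 1 was the highest Csf1 library at 0.5, 1 and 4 h, and without replicate 1 all 3 steps passed (adjusted p = 0.0135, 0.0202 and 0.0162). Csf1 lies wholly inside the non-coding gene Gm40121 on the other strand, whose values were 1.01 to 1.06 times those of Csf1 in the LPS libraries.

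Csf3 (chr11:98701313-98703629), the gene for G-CSF, was barely counted in any library. It was 0, 1 and 0 in untreated cells, 4, 1 and 2 at 0.5 h of LPS, then 2, 1 and 1 at 1 h, then 1, 0 and 0 at 2 h, and finally 0, 0 and 1 at 4 h. In the IL-4 libraries it was 0 or 1. The 0.5 and 1 h LPS groups overlapped the untreated one only at a count of 1. With no filter on low values Csf3 did not pass against untreated (1.30 ± 0.440 at 0.5 h, adjusted p = 0.0512), but it passed against IL-4 at 0.5 h (1.30 ± 0.388, 0.0125) and 1 h (1.19 ± 0.388, 0.0185). All of these rest on values of 4 or less. Csf3 shares 8.55% of its length with the non-coding gene Gm38985 on the other strand, whose group means were at most 0.667.

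Counted over steps, 5 of the 8 tested genes rose from 0.5 to 1 h (Il6, Il12a, Il12b, Il27 and Lif), as did 25.1% of all genes. From 1 to 2 h 4 rose (Il6, Il12a, Il27 and Ebi3) against 21.5% of all genes and 2 fell (Il12b and Lif) against 21.8%. From 2 to 4 h 2 rose (Il6 and Il12a) against 11.4% and 1 fell (Il12b) against 11.5%. The level at 0.5 h as a percentage of the highest LPS group differed between the tested genes. It depends on the height of that group and does not rank the genes by the time of their maximum. Il10 stood at 86.6% at 0.5 h, Csf1 at 38.7%, Ebi3 at 36.9%, Il12b at 20.6%, Lif at 17.5%, Il6 at 5.41%, Il27 at 1.81% and Il12a at 0%. Across the 12 LPS libraries the log2 values of Il6 correlated most with Il27 (r = 0.97) and Il12a (r = 0.94), and those of Il12b with Lif (r = 0.81), whereas Il12b and Il12a had r = -0.59 and Il27 and Ebi3 r = 0.86. These libraries share their scaling and time points, and the correlations are a description.

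**Figure D2:**
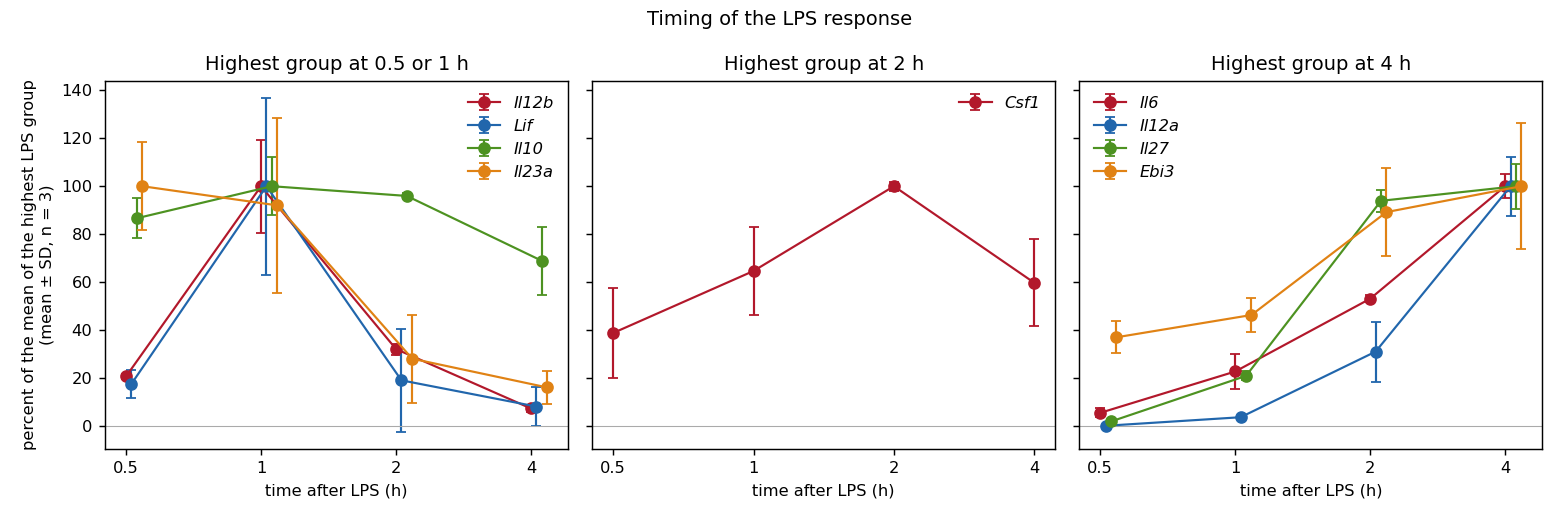
Percentage of the mean of each gene's highest LPS group (mean ± SD, n = 3) against hours of LPS, for genes with the highest group at 0.5 or 1 h, at 2 h and at 4 h. Il10 stayed above 60% throughout, Il12b, Lif and Il23a fell to 7.22%, 8.03% and 16.0% by 4 h, and Il12a went from 0% to its maximum.

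The p40 and p35 chains of IL-12 ran in opposite directions from 1 h on. Levels of different genes were compared as normalised read counts per kb of gene span. Il12b was 37.6 ± 7.30 per kb (SD, n = 3) at 1 h, where Il12a was 0.126. At 2 h they were 12 ± 0.857 and 1.10 ± 0.444 per kb, and Il12b was the higher chain in all 3 libraries. At 4 h the order had turned in all 3 libraries, with Il12b at 2.71 ± 0.598 and Il12a at 3.54 ± 0.438 per kb, a ratio within libraries of 0.760 ± 0.0857. This turn rests on the division by length. As normalised read counts Il12b stayed above Il12a at 4 h, at 47, 42 and 30 against 30, 30 and 24. Il12b was above Il23a, its partner in IL-23, in every LPS library, by 1.85 ± 0.313 times at 0.5 h and 10.1 ± 1.99 times at 1 h per kb of gene span, and by 7.52 ± 1.28 and 41 ± 8.13 times per kb of transcript.

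For IL-27 the order turned the other way. Ebi3 was the higher chain in all 3 libraries at 0.5 h, at 29.8 ± 5.35 per kb of gene span against 3.99 ± 0.576 for Il27. Il27 was the higher one in all 3 libraries at 1 h, at 46.0 ± 4.12 against 37.3 ± 5.80 per kb, by 207 ± 10.2 against 71.9 ± 14.8 at 2 h and by 221 ± 20.6 against 80.6 ± 21.1 at 4 h. The ratio of Il27 to Ebi3 within libraries was 0.137 ± 0.0342 at 0.5 h, 1.27 ± 0.335 at 1 h and 2.84 ± 0.608 at 4 h. Per kb of transcript the order of each pair was the same and the ratio of Il27 to Ebi3 at 4 h was 4.13 ± 0.883. With 3 libraries against 3 an exact permutation test cannot go below p = 0.1, so these orders are given as counts of libraries.

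**Figure D3:**
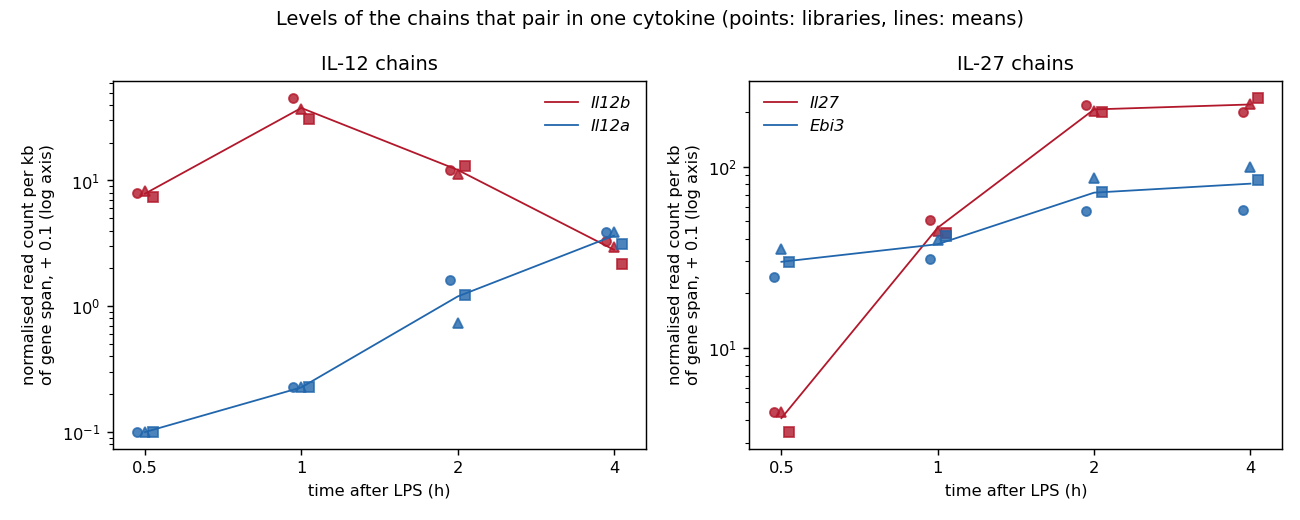
Normalised read count per kb of gene span plus 0.1 (log axis) for the paired chains of IL-12 (Il12b and Il12a) and IL-27 (Il27 and Ebi3) against hours of LPS; points are libraries, with a symbol for each replicate, and lines join means. Il12b exceeded Il12a up to 2 h and lay below it at 4 h, and Il27 lay below Ebi3 at 0.5 h and above it from 1 h on.

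After IL-4 the genes moved little. Il6, Il12a and Il12b were listed at 0 in all 12 IL-4 libraries, and Il23a was 0 in all but a single library at 2 h, where it was 1. Il27 was between 1 and 5 in the IL-4 libraries, Ebi3 between 3 and 12 and Lif between 0 and 2. Of the 8 tested genes only Il10 changed over the course of IL-4 (limma F test, adjusted p = 0.0370), as did 40.3% of all genes, and it no longer passed when any replicate number was left out. None was called at 0.5, 1 or 2 h, when 16.3%, 21.0% and 27.6% of all genes changed in either direction. Of these 8 genes, 6 had reached the minimum only through the LPS libraries and were near the floor here. Il12a and Il12b were at 0 in untreated cells too, so that no fall could be seen in them. The shares of all genes in this paragraph are therefore not a like comparison and do not show a weaker response of the members. At an unadjusted p under 0.05 there was 1 gene at 0.5 h (Il10), 0 at 1 h and 1 at 2 h (Il27). Between neighbouring IL-4 time points none was called either, against 7.82%, 9.40% and 5.48% of all genes, with 0, 0 and 2 (Il10 and Il27) at an unadjusted p under 0.05.

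Il10 was the only member called lower at 4 h of IL-4, where 12.5% of all genes were lower. Its values were 4, 2 and 4 at 0.5 h, then 4, 4 and 4 at 1 h, then 4, 4 and 4 at 2 h, and finally 1, 2 and 3 at 4 h, against 7, 4 and 11 in untreated cells. Only the 4 h group lay wholly below the untreated one. The difference for Il10 at 4 h was -1.44 ± 0.338 (limma, adjusted p = 0.00626). The counts are few, and the call was lost without replicate 1 (adjusted p = 0.0690) and without replicate 3 (0.0679). Of the receptor chains of IL-10, Il10ra was also lower after IL-4, from 443 ± 28.2 to 209 ± 32.5 (SD, n = 3) at 0.5 h.

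Csf1 had IL-4 values that rested on replicate 1. They were 102, 19 and 20 at 0.5 h, then 64, 16 and 24 at 1 h, then 62, 14 and 23 at 2 h, and finally 68, 18 and 13 at 4 h, and the replicate 1 library of each group stood above all untreated libraries while replicates 2 and 3 lay within their range. The differences of Csf1 from untreated were 0.64 to 1.05 with an SE of 0.813, and none passed (adjusted p 0.459 to 0.631). Replicate 1 was also the highest untreated library, at 31. With the replicate number as a term in the fit, the replicate block, Csf1 at 0.5 h of IL-4 passed with the same difference of 1.05 (adjusted p = 0.0258).

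**Figure D4:**
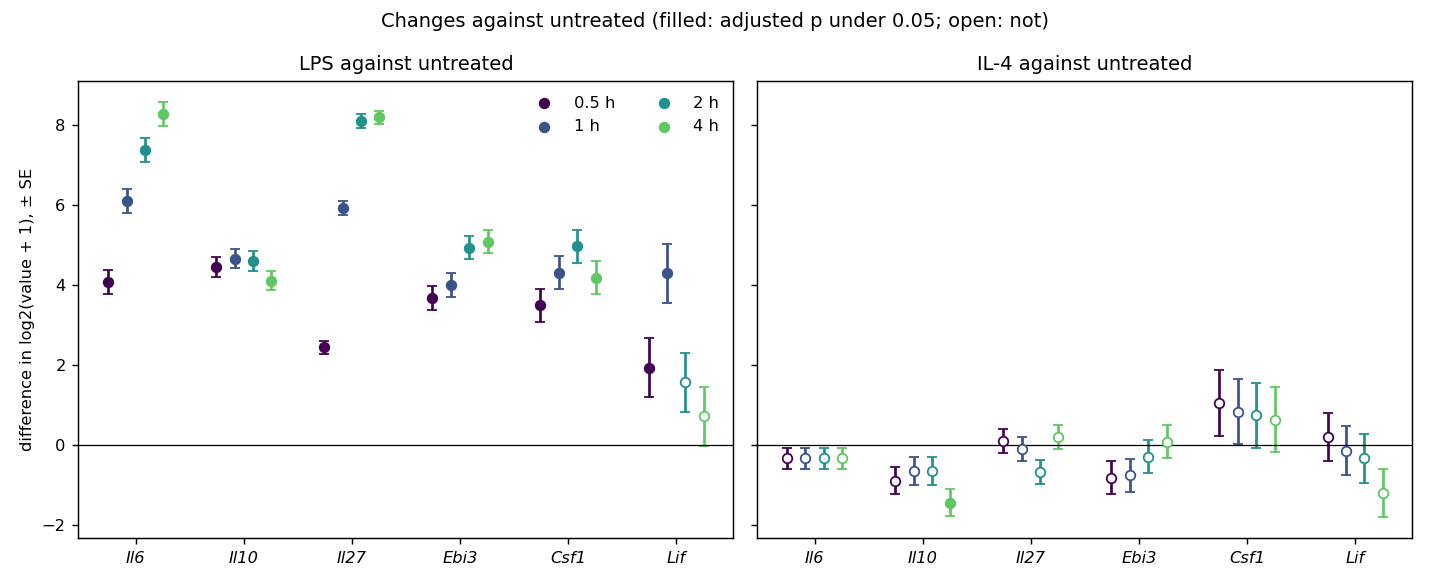
Differences from untreated in log2(value + 1), with SE, for the 6 tested genes whose untreated libraries were not all at 0, after LPS (left) and IL-4 (right), coloured by hour; filled points passed an adjusted p of 0.05. After LPS all differences were above 0 and only Lif at 2 and 4 h is open, and after IL-4 only Il10 at 4 h is filled, at -1.44.

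The stimuli were also compared directly at equal times in a fit of all 27 libraries. At 0.5 h 7 of the 8 tested genes were higher after LPS than after IL-4, all but Il12a, as were 18.0% of all genes. At 1, 2 and 4 h it was 8 of 8, against 24.0%, 26.4% and 26.1%. Of the 8, 6 were tested only through the LPS libraries, which favours higher values after LPS, so these counts are a description. Il10 was 5.25 to 5.55 higher after LPS over the 4 times (SE 0.274), Ebi3 4.48 to 5.22 (SE 0.349), and Il27 from 2.33 at 0.5 h to 8.76 at 2 h (SE 0.236). The smallest differences that passed were those of Il12a at 1 h, 1.00 ± 0.280 (adjusted p = 0.00322), and of Lif at 0.5 h, 1.74 ± 0.675 (0.0329). Both rest on few counts, since the Il12a call was lost without replicate 1 (0.0603) or without replicate 3 (0.0734) and the Lif call without replicate 2 (0.0675) or without replicate 3 (0.137). Csf1, at 2.44 ± 0.652 at 0.5 h, was not called without replicate 2 (0.0771).

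Il6, Csf1 and Ebi3 overlap genes on the other strand that had values of a like size. Without strand, reads of each pair may have been counted for both genes. Il27 also overlaps a gene on the other strand, though the values of that pair were less alike. In the LPS libraries Gm40121 was at or above Csf1 in 12 of 12 and A230098N10Rik at or above Il6 in 12 of 12, whereas Gm16712 was below Ebi3 in 12 of 12. Apobr, which touches Il27 over 85 bases only, was at or above Il27 in 11 of 12, at 0.838 to 3.31 times its value. In untreated cells Apobr was 29.0 ± 6.08 (SD, n = 3) and Il27 3.67 ± 1.15.

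**Figure D5:**
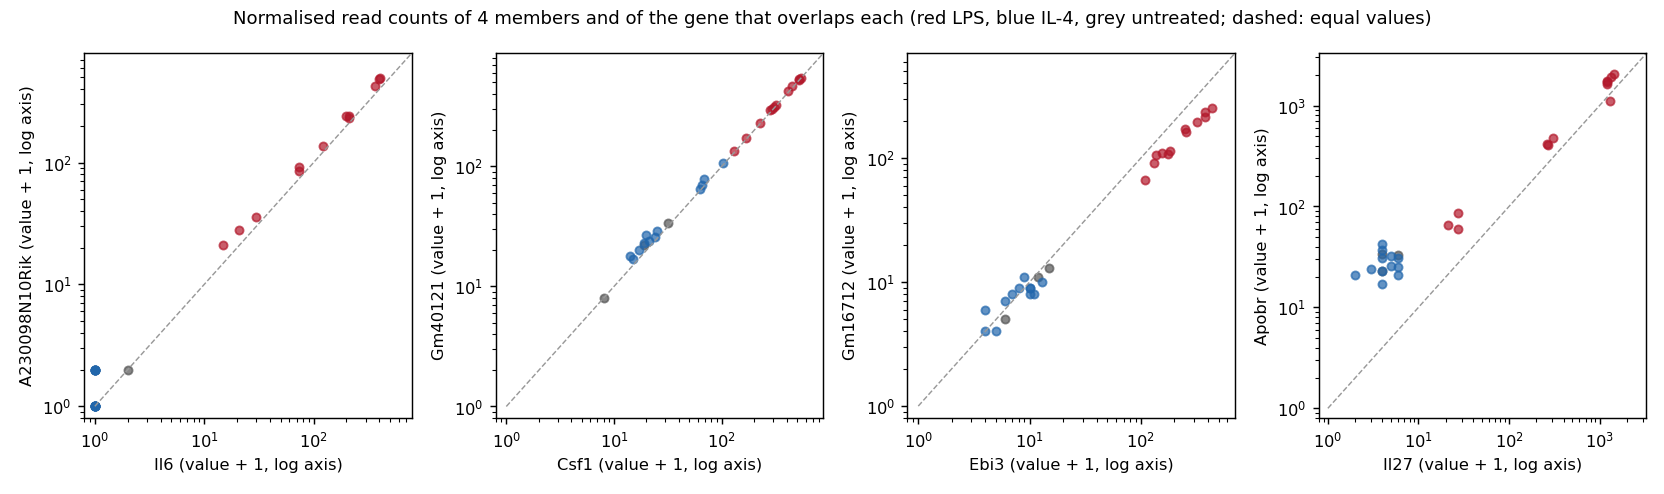
Normalised read counts plus 1 (log axes) of Il6, Csf1, Ebi3 and Il27 against the gene that overlaps each, in all 27 libraries; the dashed line marks equal values. Gm40121 follows Csf1 along the line, A230098N10Rik lies 1.11 to 1.43 times above Il6 after LPS, Gm16712 lies below Ebi3 after LPS, and Apobr lies above Il27 in all untreated and IL-4 libraries.

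Related cytokines outside the set were mostly silent, and 6 of 15 were tested. After LPS 4 of the 6 rose, 1 fell and 1 did not pass. Clcf1, Il34 and Csf2 reached the minimum only through the LPS libraries, which fixes their direction, and the median of the largest changes of the other 3 was -0.25, beside -1.0 for all genes tested. Clcf1, a gp130 cytokine, went from 3.0 ± 1.73 to 373 ± 91.8 (SD, n = 3) at 2 h, Il34, the other ligand of the M-CSF receptor, from 0.333 ± 0.577 to 37.7 ± 8.39 at 2 h, and Flt3l fell from 13.0 ± 0 to 3.33 ± 2.52 at 1 h. After IL-4 Kitl, the ligand of KIT, fell from 38.3 ± 4.62 to 17.7 ± 6.03 at 4 h, and the other 5 did not pass over the course (median 0.89, beside -0.16 for all genes). Over the IL-4 course 19.4% of all genes passed with their largest change upward and 20.9% downward, the shares against which the counts of the lists stand. Of the 9 that were not tested, Il19 had the highest value, 16, in an LPS library.

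Receptor chains for these cytokines moved in both directions. Of the 11 tested out of 12, 6 rose and 5 fell after LPS, beside 32.9% and 54.7% of all genes. Il12rb1, Il23r and Osmr were tested only through the LPS libraries, and the median of the other 8 was -1.24, beside -1.0 for all genes. Lifr, the LIF receptor, fell from 235 ± 20.2 to 7.67 ± 3.79 at 4 h and Il6ra, the IL-6 receptor, from 709 ± 59.6 to 91.7 ± 9.29 at 2 h. Il23r, which was listed at 0 in untreated cells, reached 54.0 ± 1.00 at 4 h, and Osmr, the oncostatin M receptor, 28.3 ± 12.1 at 2 h. After IL-4 6 chains passed with their largest difference upward, 1 downward and 4 did not pass, beside 19.4% and 20.9% of all genes (median 0.68, beside -0.16). Il6st, which encodes gp130, rose from 289 ± 32.8 to 664 ± 82.2 at 1 h and Csf3r, the G-CSF receptor, from 378 ± 77.7 to 837 ± 94.2 at 4 h of IL-4.

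Of 12 genes of JAK-STAT signalling, all tested, 9 rose, 2 fell and 1 did not pass after LPS, beside 32.9% and 54.7% of all genes. Without Socs3, which was tested only through the LPS libraries, the median was 1.88, beside -1.0. Socs3, a feedback inhibitor of gp130 signalling, went from 3.33 ± 1.53 to 453 ± 35.4 at 2 h and Jak2, a kinase that many of these receptors use, from 161 ± 20.0 to 5839 ± 429 at 2 h. Pias3 and Ptpn6, both inhibitors, fell by 2.18 and 1.52 at 0.5 h. After IL-4 4 passed upward, 4 downward and 4 did not pass, again beside 19.4% and 20.9% of all genes (median -0.32, beside -0.16). Jak2 rose by 1.89 at 1 h, and Stat4, the transducer of IL-12, fell by 2.62 at 4 h, from 37.3 ± 0.577 to 5.33 ± 1.53. Ptpn6 fell by 0.87 at 0.5 h. Socs3 passed over the IL-4 course (adjusted p = 0.0167), with a largest difference of 1.11 that did not pass by itself (0.118).

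Transcription factors with known roles at cytokine genes rose in 16 of 18 cases after LPS and 2 fell, beside 32.9% and 54.7% of all genes. Without Cebpb, tested only through the LPS libraries, the median was 2.94, beside -1.0. Nfkbiz, a nuclear cofactor of NF-κB, went from 211 ± 18.8 to 16302 ± 506 at 0.5 h, and Batf2 from 5.00 ± 2.00 to 414 ± 73.1 at 4 h. Irf8 fell by 2.56 and Maf by 1.91 at 0.5 h. Under IL-4 4 passed upward, 8 downward and 6 did not pass, against 19.4% and 20.9% of all genes (median -0.61, beside -0.16). Rel, an NF-κB subunit, rose by 1.78 and Atf3 by 1.11 at 0.5 h, while Nfkbiz fell by 2.80 at 2 h and Fos, an AP-1 subunit, by 2.98 at 4 h.

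Genes for regulators of cytokine mRNA decay divided after LPS, with 5 of 9 up and 4 down, beside 32.9% and 54.7% of all genes (median 0.56, beside -1.0). Zfp36, which encodes tristetraprolin, rose by 3.73 at 0.5 h and Arid5a, which protects Il6 mRNA, by 3.34 at 2 h. The paralogues Zfp36l1 and Zfp36l2 fell by 4.26 at 2 h and 4.65 at 4 h. After IL-4 3 passed upward, 2 downward and 4 did not pass, near the 19.4% and 20.9% of all genes (median 0.17, beside -0.16). Zc3h12a, which encodes Regnase-1, a nuclease that degrades Il6 mRNA, rose by 2.07 and Arid5a by 1.34 at 0.5 h, while Zfp36l2 fell by 2.36 and Rc3h1 by 0.29 at 0.5 h.

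The nearest protein-coding gene on each side of a member gave 20 neighbours, of which 15 were tested. By the direction of the largest change, 10 rose after LPS, 1 fell and 4 did not pass, beside 32.9% of all genes rising and 54.7% falling. Mapkapk2, a kinase gene 28.7 kb downstream of Il10, rose by 5.00 at 0.5 h from an untreated 654. Nupr1, 28.2 kb upstream of Il27, rose by 5.44 at 2 h. Its group means were at most 3 in untreated and IL-4 cells. It thus reached the minimum only through the LPS libraries, which fixes its direction. Stat2, 3.29 kb downstream of Il23a, rose by 3.98 at 4 h while Pan2 on its other side fell by 1.06 at 2 h. Cln3, 3.19 kb downstream of Il27, rose by 3.24 at 2 h, Schip1, 64.2 kb upstream of Il12a, by 4.57 at 2 h and Osm, the gp130 cytokine gene 16.5 kb upstream of Lif, by 2.02 at 0.5 h. Yju2 and Zfp119b on the sides of Ebi3 rose by 2.85 and 1.29 at 2 h, Dnajb6 beside Il6 by 1.46 at 0.5 h and Ahcyl1 beside Csf1 by 0.84 at 1 h. At 0.5 h Ahcyl1 stood below untreated, at 114 ± 12.7 against 191 ± 20.1 (SD, n = 3). So did Stat2, at 120 ± 16.5 against 221 ± 25.7. Tyms beside Il6, Ublcp1 beside Il12b and both neighbours of Csf3, Psmd3 and Med24, did not pass.

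For each tested member but Csf1 the most similar protein-coding genes were sought by Pearson correlation of log2(value + 1) over the 27 libraries. The closest was Malt1 for Il6 (r = 0.99), Pik3r5 for Il10 (r = 0.99), Slfn4 for Il12a (r = 0.98), Abi1 for Il12b (r = 0.99), Cers6 for Il27 (r = 0.99), Rnf14 for Ebi3 (r = 0.98) and Zfand3 for Lif (r = 0.95). Next came Cers6 and Gbp2 for Il6, Nfkbia and Icosl for Il10, Parp10 and Macc1 for Il12a, Fbxw11 and Ezr for Il12b, Gpd2 and Tmbim6 for Il27, Traf1 and Prdx5 for Ebi3, and Taok1 and Sgms2 for Lif. Cers6 was among the 3 closest genes of both Il6 and Il27. All libraries share a scaling and most of the variation was that between LPS and other samples, so the coefficients describe likeness of pattern only.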

How the data were processed

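Chromatin-associated RNA was sequenced from 27 BMDM samples in 9 groups. The authors aligned single-end reads to mm10 with TopHat2 2.1.1, removed multi-mapping and blacklisted reads (bedtools 2.29.2), counted reads per RefSeq GRCm38.p6 gene in R 3.6.2 and scaled the samples on invariant genes. Whether introns were counted and whether strand was used is not given in the sources used here. The deposited values are whole numbers after scaling, a score and not raw counts, so that no count model was used, and fold changes of low genes are understated. All sample columns were matched to samples by title.

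Groups were taken from the labels. The test was limma 3.58.1 on log2(value + 1) (mean-variance trend, R 4.3.3) over 13901 genes with at least 10 in at least 3 libraries, with Benjamini-Hochberg adjustment over all of them at a threshold of 0.05. LPS and IL-4 courses were fitted separately with the untreated samples, and all 27 samples together for LPS against IL-4. Tests were two-sided. The study used an impulse model over time, which was not run here. The scripts were tested on simulated data. The sources do not say that replicates came from separate animals, so that p-values measure the spread between these samples, which may be technical.

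The members and gene lists were chosen with earlier results of these data known. Named were all members, overlapping genes, the tested nearest protein-coding neighbours, the 3 most correlated genes of each tested member, and the 2 largest rises and falls per list among genes that passed a course. The genes most correlated with Csf1 are not reported here. Il10ra is named in its list by the same rule, and Il19, Il12rb1, Cebpb and the marker genes were named after their values were seen. Alternatives were another pseudocount (8), other filters (none, or a mean of at least 50), other scalings, a replicate block, sample weights, averaged replicates, leaving out each replicate number and a fit of all samples.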

Additional observations from a re-analysis of the deposited data

Results flagged for a closer look

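The difference between neighbouring LPS time points passed the threshold 14 times among the tested members, so that the response at those times differed by a test of the difference itself (limma, on the log2(value + 1) scale). Il27 had the largest, 3.48 from 0.5 to 1 h. Over the same interval the differences were 2.36 for Lif, 2.25 for Il12b, 2.03 for Il6 and 1.00 for Il12a. From 1 to 2 h they were 2.20 for Il12a, 2.17 for Il27, 1.26 for Il6 and 0.93 for Ebi3, and -1.62 for Il12b and -2.72 for Lif. From 2 to 4 h they were 1.65 for Il12a, 0.91 for Il6 and -2.14 for Il12b. Il12b rose in the first interval and fell in both later ones. Not all of these calls were firm. The step of Il12a from 0.5 to 1 h was from 0 in each library to 1 in each library. Both steps of Lif, that of Ebi3, those of Il6 after 1 h and that of Il12a from 2 to 4 h lost their call without certain replicates, as given above.

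Il10 at 4 h passed in opposite directions, higher after LPS and lower after IL-4 than in untreated cells. The direct difference between LPS and IL-4 for Il10 at 4 h was 5.55 ± 0.274 (adjusted p = 1.13e-14). These comparisons with untreated cells share the 3 untreated libraries, and the call after IL-4 was lost without replicate 1 and without replicate 3.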

How the results depend on the processing

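Of 75 changes called for the tested members, 60 were called under every alternative that tested the gene in that comparison. These 60 include 5 of Il12a and 2 of Lif, which were not tested under a mean of at least 50. Of 852 recomputed values 803 kept their side of the threshold, 49 lost the call and 0 turned direction. Scaling by median-of-ratios factors moved the median LPS gene by 0.23 to 0.25 and equal totals by -0.49 to -0.63 (log2). The main medians were -0.24 to -0.30, and no member turned direction. Under a mean of at least 50, which left 6 members tested, 3 members in place of 5 rose from 0.5 to 1 h, 1 in place of 2 fell from 1 to 2 h and 1 in place of 2 rose from 2 to 4 h. With no filter 1 rose from 2 to 4 h. With replicates 2 and 3 averaged, 3 rose in the first step, 1 fell in the second and 1 rose in the third. Leaving out a replicate number gave 3 to 5 rises in the first step, 2 to 5 rises and 1 to 2 falls in the second, and 0 to 2 rises and 1 to 2 falls in the third. The number of members that passed the IL-4 course, 1, became 0 with no filter, with any replicate left out and with replicates averaged, and 2 with sample weights and in a fit of all 27 samples. For IL-4 against untreated, leaving out a replicate gave 0 to 1 members at 1 h, at 2 h and, for the fall of Il10, at 4 h. Sample weights and the fit of all samples each gave 1 at 2 h (Il27) and 1 from 2 to 4 h (Il27), where leaving out a replicate gave 0 to 1, and the fit of all samples gave 1 at 0.5 h (Il10).

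Samples with the same replicate number in different groups had correlated deviations from their group means (0.0897 to 0.713, median 0.308, over 108 pairs), 1 of them below 0.1. Pairs with different numbers had a median of -0.309 (-0.583 to 0.390, over 216 pairs). Of 27 samples, 19 correlated best with their own number. Replicates with the same number thus shared deviations, though the labels do not state a pairing. The main fit had no replicate term, and the replicate block is given beside it. With the replicate block 2 members in place of 1 fell from 2 to 4 h of LPS (Il12b and Csf1), and 1 in place of 0 changed at 0.5 h of IL-4 (Csf1). The steps of Csf1 from 0.5 to 1 h and 1 to 2 h also passed with the block (adjusted p = 0.0107 and 0.0342), as did that from 2 to 4 h (0.0218). Lif at 2 h of LPS passed with the block (0.0193).

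The depth is unknown, and Il12a, Il23a, Lif and Csf3 rest on few counts in most groups.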

Other observations

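Some receptor genes for these cytokines changed beside ligands that did or did not move. Csf1r, the M-CSF receptor, was 1971 ± 136 (SD, n = 3) in untreated cells and 456 ± 39.3 at 2 h of LPS (limma, fell by 2.11 on the log2 scale), the time when Csf1 was highest. Csf3r rose from 378 ± 77.7 to 2089 ± 87.7 at 4 h of LPS, while Csf3 was at most 4 in any library. Il10ra rose from 443 ± 28.2 to 1130 ± 98.5 at 2 h of LPS and fell after IL-4. Il12rb2, a chain of the IL-12 receptor, fell from 36.3 ± 1.53 to 16.7 ± 3.51 at 4 h of LPS and was 59.0 ± 5.20 at 4 h of IL-4. These genes were chosen after their values were seen.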
